A study of Mus musculus with 52 samples.

Results

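The Wnt7a, Wnt7b and Norrin signals between neural tissue and its vessels are carried by the 10 genes described here: the Frizzled receptors Fzd4 and Fzd6, the co-receptors Lrp5 and Lrp6, the co-activators Tspan12, Adgra2 and Reck, and the ligands Wnt7a, Wnt7b and Ndp, the gene that encodes Norrin. They were taken by name, as 10 of the 49585 genes of the annotation, and were followed in all 40 RNA libraries, 24 from sorted cells and 16 from RiboTag preparations, and in 12 libraries of open chromatin. The receptors were compared in endothelial cells (ECs) and the ligands in the cells around them, first between tissues and then between genotypes.

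Each of the 26 groups held 2 libraries, and all came from adult male mice. In the sorted experiment, GFP-positive cells (ECs) and GFP-negative cells (parenchyma) were separated from 3 tissues (cerebellum, anterior pituitary, posterior pituitary) of mice with the vascular reporter Tie2-GFP (wild type, WT) and of mice labelled Tie2-GFP; Pdgfb-CreER; BcatEx3fl (stabilized), which lost exon 3 of 1 Ctnnb1 allele in Pdgfb-CreER-expressing cells after 100 µg of 4-hydroxytamoxifen (4HT) at P10. Exon 3 encodes the residues through which beta-catenin is marked for degradation, so that the protein made without it is stable. Every sorted pituitary library came from the pooled pituitaries of 20 to 30 mice between P30 and P90. The WT mice of this experiment carried no Cre and, from the description of the sorted genotypes, the groups differ in allele, Cre and 4HT together, so that these cannot be told apart. In the RiboTag experiment, the Cre attached an epitope tag to a ribosomal protein in Pdgfb-CreER-expressing cells, and RNA was taken from the precipitated ribosomes (bound) and from the whole lysate (input) of the cortex and the choroid plexus. Its controls, labelled RiboTag; Pdgfb-CreER and called WT below, carried the same Cre and received 4HT like the stabilized mice, which carried BcatEx3fl in addition. These mice were 6 to 8 weeks old, and the choroid plexi of 3 to 4 animals were pooled. Recombination by Pdgfb-CreER is mosaic, so that a stabilized group also holds ECs that kept the exon, and gene counts do not show the loss of an exon.

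In brain vessels, Wnt ligands from neural cells and Norrin from glia bind Frizzled receptors on ECs. The co-receptors pass the signal on, beta-catenin is spared from degradation, and genes of the blood-brain barrier are transcribed. Fzd4 is the receptor of Norrin and is assisted by the tetraspanin Tspan12, while Adgra2 (also called Gpr124) and Reck form a complex through which ECs respond to Wnt7a and Wnt7b. The pituitary and the choroid plexus have permeable, fenestrated vessels, whereas those of the cortex and the cerebellum form the barrier.

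In the GRCm38 genome, Fzd4 (ENSMUSG00000049791.4) lies at chr7:89404355-89413134 on the plus strand, Fzd6 (ENSMUSG00000022297.15) at chr15:39006034-39038188 on the plus strand, Lrp5 (ENSMUSG00000024913.16) at chr19:3584828-3686564 on the minus strand and Lrp6 (ENSMUSG00000030201.15) at chr6:134446476-134566965 on the minus strand. Tspan12 (ENSMUSG00000029669.14) lies at chr6:21771395-21852515 on the minus strand, Adgra2 (ENSMUSG00000031486.15) at chr8:27085583-27123436 and Reck (ENSMUSG00000028476.13) at chr4:43875530-43944806, both on the plus strand. The ligand genes lie on the minus strand, Wnt7a (ENSMUSG00000030093.7) at chr6:91363981-91411363, Wnt7b (ENSMUSG00000022382.15) at chr15:85535437-85582473 and Ndp (ENSMUSG00000040138.7) at chrX:16885521-16911774.

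Sorted libraries held 12157485 to 37529274 counts and RiboTag libraries 6409013 to 21399125. Levels per transcript length, scaled to 1 total in every library, are given as TPM. The summed TPM of 9 endothelial markers was between 1198 and 5506 in the GFP-positive libraries and between 1.86 and 28.1 in the GFP-negative ones, and between 329.6 and 963.8 in bound RNA against 17.1 to 42.0 in input. Erg was at 0 in the cortex inputs and Tie1 in both libraries of the WT posterior pituitary parenchyma, while each other endothelial marker was detected in at least 1 library of every group. Markers of choroid plexus epithelium summed to between 11890 and 20070 TPM in choroid plexus bound RNA, far above its endothelial markers, so that this fraction held much RNA that was not endothelial. Pituitary endocrine markers summed to 6784 and 4375 TPM in the WT anterior pituitary ECs and to 36.2 and 32.1 TPM in the WT cerebellar ECs. In one library, replicate 2 of the stabilized anterior pituitary ECs, the title and the tissue entry disagree on the lobe; it was kept as anterior pituitary, and values without it are given where a result rests on it. In bulk RNA, fewer cells of a type and less RNA per cell cannot be told apart, and p-values measure the spread between these libraries, most of them pools of animals.

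A gene was called different when its adjusted p was below 0.05 and its fold change at least 2, with counts tested by edgeR's quasi-likelihood method over all genes of a fit. Values for 1 gene across libraries are counts scaled to a common library size after TMM normalization (CPM), and comparisons between genes use TPM. All 7 receptor-side genes passed the filter on low counts in each fit. Wnt7a and Wnt7b did not pass it in ECs, and Ndp did not pass it in bound RNA.

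The first comparison asked where the receptor-side genes stood in WT ECs of a barrier tissue, the cerebellum, against the permeable vessels of the pituitary. Fzd6, Adgra2, Reck and Lrp6 were higher in cerebellar ECs than in those of either pituitary lobe, and Tspan12 was lower than in either lobe. Fzd4 and Lrp5 were lower in cerebellar than in posterior pituitary ECs. The cerebellum differed from the anterior pituitary in 5 of 7 genes and from the posterior pituitary in 7 of 7, where 5.26% and 4.4% of all genes tested were called. The lobes differed from each other in 2 of 7 genes, against 0.994% of all genes. The median log2 fold change of the 7 genes was 1.37 for cerebellum over anterior pituitary, 1.15 for cerebellum over posterior pituitary and -0.85 for anterior over posterior pituitary, and that of all genes tested was near 0. These comparisons share the WT libraries of each tissue.

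Fzd4, the Norrin receptor, was at 228.9 and 243.9 CPM in WT cerebellar ECs, 406.7 and 418.6 CPM in the anterior pituitary and 712.4 and 1082 CPM in the posterior pituitary. The 3 tissues did not overlap, with the cerebellum lowest and the posterior pituitary highest. Cerebellum over posterior pituitary was -1.92 ± 0.31 on the log2 scale (SE; adjusted p = 0.0025), a 3.78-fold lower level. The cerebellum and the anterior pituitary (-0.80 ± 0.30, adjusted p = 0.199) and the 2 lobes (-1.12 ± 0.30, adjusted p = 0.131) did not differ by the call rule.

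Fzd6, a Frizzled receptor also known for its role in planar cell polarity, was at 311.2 and 324.2 CPM in cerebellar ECs, 4.54 and 5.12 CPM in the anterior pituitary and 75.6 and 101.5 CPM in the posterior pituitary. The cerebellum stood far above both lobes, and the anterior pituitary was almost without the transcript. The cerebellar level was 65.8-fold that of the anterior pituitary (log2 6.04 ± 0.51, adjusted p = 1.36e-05) and 3.58-fold that of the posterior pituitary (1.84 ± 0.42, adjusted p = 0.0241). The posterior exceeded the anterior pituitary by 18.4-fold (-4.20 ± 0.47 for anterior over posterior, adjusted p = 0.000667).

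Of the co-receptors, Lrp5 was at 101.1 and 119.1 CPM in cerebellar ECs, 139.5 and 192.3 CPM in the anterior pituitary and 187.7 and 409.6 CPM in the posterior pituitary. The cerebellum lay below the other tissues, but the posterior pituitary replicates were far apart. Cerebellum over posterior pituitary was -1.44 ± 0.37 (adjusted p = 0.04825, 2.71-fold lower), cerebellum over anterior pituitary -0.59 ± 0.37 (adjusted p = 0.442) and anterior over posterior pituitary -0.85 ± 0.37 (adjusted p = 0.402). Lrp6 went the other way, at 269.3 and 257.7 CPM in the cerebellum, 87.3 and 117.2 CPM in the anterior and 99.2 and 138.6 CPM in the posterior pituitary. The pituitary lobes overlapped for Lrp6 and both stayed below the cerebellum, by 2.59-fold (1.37 ± 0.29, adjusted p = 0.0142) and 2.22-fold (1.15 ± 0.29, adjusted p = 0.0432).

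Among the co-activators, Tspan12 was at 65.7 and 96.5 CPM in cerebellar ECs, 188.6 and 198.7 CPM in the anterior and 245.5 and 178.3 CPM in the posterior pituitary. The lobes overlapped and the cerebellum lay below them, by 2.40-fold (-1.26 ± 0.27, adjusted p = 0.01625) and 2.62-fold (-1.39 ± 0.28, adjusted p = 0.0105). Adgra2, an adhesion G protein-coupled receptor, was at 232.4 and 191.8 CPM in the cerebellum, 19.6 and 18.0 CPM in the anterior and 33.2 and 28.3 CPM in the posterior pituitary. Its cerebellar level was 11.3-fold that of the anterior (3.50 ± 0.32, adjusted p = 2.77e-05) and 6.92-fold that of the posterior pituitary (2.79 ± 0.31, adjusted p = 0.000176). Reck, the GPI-anchored partner of Adgra2, was at 82.3 and 92.5 CPM in the cerebellum, 9.34 and 8.39 CPM in the anterior and 34.0 and 42.0 CPM in the posterior pituitary. All 3 tissues were apart for Reck: the cerebellum exceeded the anterior pituitary by 9.85-fold (3.30 ± 0.30, adjusted p = 2.78e-05) and the posterior by 2.297-fold (1.2 ± 0.28, adjusted p = 0.0282), and the posterior exceeded the anterior by 4.29-fold (-2.10 ± 0.29 for anterior over posterior, adjusted p = 0.00328).

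**Figure D1:**
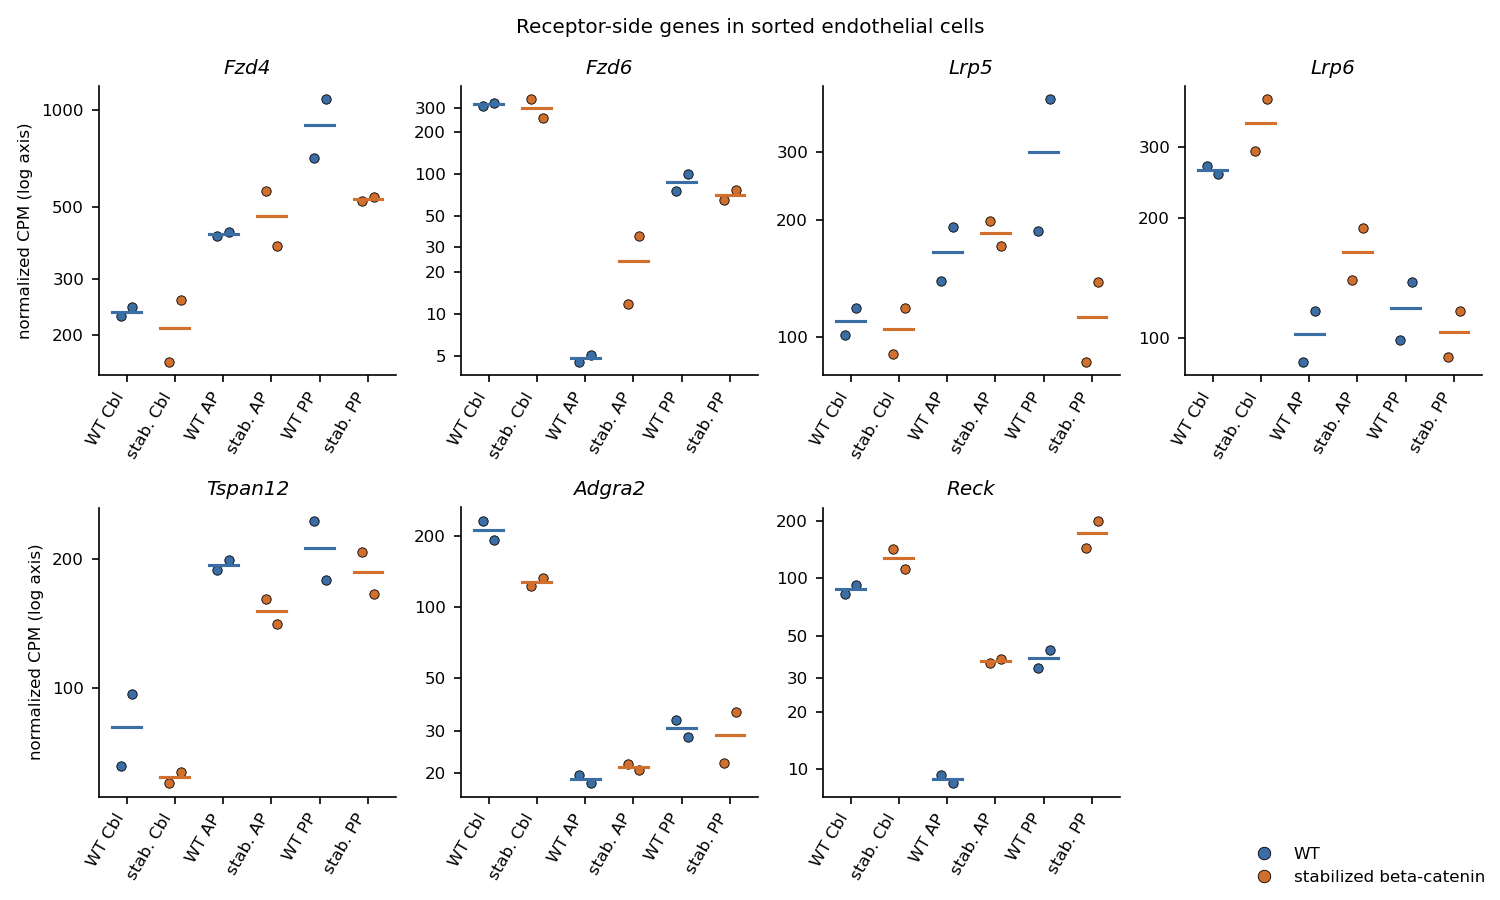
Normalized CPM (log axis) of the 7 receptor-side genes in GFP-positive ECs of the cerebellum, anterior pituitary and posterior pituitary; points are the 2 replicates, horizontal lines their means, blue WT and orange stabilized. Fzd6, Adgra2 and Reck are highest in the cerebellum of WT mice, where Fzd6 was at 311.2 and 324.2 CPM against 4.54 and 5.12 CPM in the anterior pituitary, and Reck is the gene whose stabilized points lie above WT in each tissue.

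The calls of Fzd6, Adgra2 and Reck between the cerebellum and the anterior pituitary, of Adgra2 between the cerebellum and the posterior pituitary, and of Fzd6 between the lobes held under all 18 alternative settings and left-out libraries. Fzd4 against the posterior pituitary and Reck between the lobes were called in 17 and 16 of 18, and in each fit that left out 1 library. Each other call was lost without at least 1 library. Between the cerebellum and the anterior pituitary, Lrp6 was not called without anterior pituitary replicate 1 (adjusted p = 0.149), and Tspan12 was not called without cerebellum replicate 1 (0.185) or anterior pituitary replicate 1 (0.055) or 2 (0.0782). Against the posterior pituitary, Fzd6 was not called without posterior pituitary replicate 1 (0.0675), Tspan12 without cerebellum replicate 1 (0.127), Lrp5 without cerebellum replicate 1 (0.166) or 2 (0.0764) or posterior pituitary replicate 2 (-0.77, 0.389), and Lrp6 without cerebellum replicate 1 (0.138) or 2 (0.0878) or posterior pituitary replicate 1 (0.145). Reck against the posterior pituitary was called in 10 of 18 alternatives. Its adjusted p was 0.0901 and 0.162 without cerebellum replicates 1 and 2, 0.101 and 0.0524 without WT posterior pituitary replicates 1 and 2, and 0.0563 and 0.0624 without stabilized posterior pituitary replicates 1 and 2. Between the lobes, Fzd4 was called in 5 of 18 alternatives: by DESeq2 (-1.12, 0.00668), with no filter on low counts (-1.11, 0.0107), and without WT posterior pituitary replicate 1 (-1.39, 0.0171), stabilized anterior pituitary replicate 1 (0.0411) or the library with conflicting labels (0.039). Lrp5 was called there without WT posterior pituitary replicate 1 (-1.30, 0.0403). When the fit held only the 2 groups compared, the posterior pituitary calls of Fzd4 (0.0632), Lrp5 (0.209), Lrp6 (0.175), Tspan12 (0.141) and Reck (0.178), that of Reck between the lobes (0.273) and that of Tspan12 against the anterior pituitary (0.0564) were lost. With an offset for transcript length, Lrp6 (0.442) and Tspan12 (0.454) were not called against the anterior pituitary, Lrp6 (0.17), Tspan12 (0.205) and Reck (0.208) were not called against the posterior pituitary, and Reck (0.091) was not called between the lobes. Markers of mural cells moved with the tissues, with 3 of 7 higher in cerebellar ECs than in those of each lobe, 1 of 7 lower than in the anterior pituitary, and sums of 713 and 586 TPM in the cerebellum, 188 and 222 TPM in the anterior and 157 and 83.7 TPM in the posterior pituitary. Endothelial markers were lower in the cerebellum than in the posterior pituitary, with 5 of 9 called and a median log2 fold change of -1.07, the direction of Fzd4, Lrp5 and Tspan12, and against the anterior pituitary 1 of 9 was called in each direction (median -0.56). Endocrine markers were lower in the cerebellum in 5 of 7 cases against the anterior and 2 of 7 against the posterior pituitary. The part of these cells in the receptor differences was not tested.

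Receptors in ECs were then set against the parenchyma of the same tissue in a fit of both fractions, where 11.3% of all genes were called in the cerebellum, 11.3% in the anterior pituitary and 14.5% in the posterior pituitary. The CPM of this comparison are normalized over both fractions and so differ slightly from those above. The EC fractions also held RNA of mural markers, as given above, and its part in these differences was not tested. In the cerebellum 5 of 7 receptor-side genes were higher in ECs. Fzd6 was at 305.1 and 309.7 CPM in ECs and 20.9 and 16.1 CPM in the parenchyma, 16.6-fold higher (4.05 ± 0.87, adjusted p = 0.00439). Adgra2 was at 227.9 and 183.2 CPM in ECs and 4.53 and 12.1 CPM in the parenchyma (24.8-fold, adjusted p = 0.0395). Reck was at 80.7 and 88.3 CPM in ECs and 6.18 and 7.13 CPM in the parenchyma (12.7-fold, adjusted p = 0.0154). These 3 genes, higher in cerebellar ECs than in ECs of the anterior pituitary by the most, were also clearly apart from the surrounding cells. Fzd4 was at 224.4 and 233.0 CPM in ECs and 16.9 and 47.99 CPM in the parenchyma (7.06-fold, adjusted p = 0.0477), and Lrp5 was at 99.1 and 113.7 CPM in ECs and 41.4 and 26.9 CPM in the parenchyma (3.12-fold, adjusted p = 0.0492). Every parenchymal value of the 5 genes lay below the EC values. Lrp6 (264.1 and 246.2 CPM in ECs and 116.9 and 140.9 CPM in the parenchyma, log2 0.98 ± 0.32, adjusted p = 0.0541) and Tspan12 (64.4 and 92.2 CPM in ECs and 41.6 and 20.8 CPM in the parenchyma, 1.33 ± 0.57, adjusted p = 0.164) were not called.

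In the anterior pituitary 3 of 7 genes were higher in ECs, and they were the Norrin receptor, its helper and a co-receptor. Fzd4 was at 392.3 and 406.1 CPM in ECs and 33.1 and 28.3 CPM in the parenchyma (13.0-fold, adjusted p = 0.0124), Lrp5 at 134.6 and 186.6 CPM in ECs and 14.8 and 15.9 CPM in the parenchyma (10.5-fold, adjusted p = 0.0004455) and Tspan12 at 181.9 and 192.7 CPM in ECs and 32.2 and 45.5 CPM in the parenchyma (4.82-fold, adjusted p = 0.0153). Fzd6 and Reck stood the other way. Fzd6 was at 4.38 and 4.97 CPM in ECs and 10.5 and 28.4 CPM in the parenchyma (-2.06 ± 0.81, adjusted p = 0.116) and Reck at 9.01 and 8.14 CPM in ECs and 16.3 and 23.2 CPM in the parenchyma (-1.20 ± 0.87, adjusted p = 0.42), so that the ECs lay below the parenchyma without the difference being called. Adgra2 (1.59, adjusted p = 0.469) and Lrp6 (-0.25, adjusted p = 0.709) were not called.

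In the posterior pituitary 4 of 7 were higher in ECs. Fzd4 was at 684.6 and 1043 CPM in ECs and 15.3 and 0.378 CPM in the parenchyma, a 109-fold difference (6.77 ± 1.07, adjusted p = 0.00022). Adgra2 was at 31.9 and 27.2 CPM in ECs and 0.0275 and 1.32 CPM in the parenchyma (45.9-fold, adjusted p = 0.0173). Tspan12 was at 235.9 and 171.7 CPM in ECs and 13.5 and 1.89 CPM in the parenchyma (26.4-fold, adjusted p = 5.93e-05). The parenchymal replicates of these genes were far apart, with replicate 1 the higher for Fzd4 and Tspan12. Lrp5 was at 180.4 and 394.5 CPM in ECs and 21.99 and 15.3 CPM in the parenchyma (15.4-fold, adjusted p = 9.61e-05). Fzd6 (1.69, adjusted p = 0.178), Lrp6 (0.21, adjusted p = 0.77) and Reck (1.75, adjusted p = 0.21) were not called.

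The calls of Fzd6 in the cerebellum, of Fzd4 and Lrp5 in the anterior and of Lrp5 and Tspan12 in the posterior pituitary held in all 20 alternatives. Without cerebellar parenchyma replicate 1, Fzd4 (adjusted p = 0.185), Lrp5 (0.0597), Adgra2 (0.137) and Reck (0.0548) were not called in the cerebellum, and the calls over the 10 genes and 3 tissues fell from 13 to 8. Fzd4 was not called without cerebellar EC replicate 2 (0.0517), Adgra2 without EC replicate 1 (0.0523), and Lrp5 without parenchyma replicate 2 (0.212) or EC replicate 1 (0.0691) or 2 (0.127). Tspan12 in the anterior pituitary was not called without parenchyma replicate 1 (0.0822), nor was Adgra2 in the posterior pituitary without parenchyma replicate 1 (0.0518). With an offset for transcript length Fzd4 (0.0586), Lrp5 (0.0735), Adgra2 (0.0803) and Reck (0.0532) were not called in the cerebellum, nor was Tspan12 in the anterior pituitary (0.071). When the fit held only the groups compared, Fzd4 (0.0524) and Adgra2 (0.121) were not called in the posterior pituitary. Equal replicate numbers of the 2 fractions may mark 1 sort. With a replicate block Fzd4 (0.0517) and Lrp5 (0.0521) were not called in the cerebellum, and with a block per preparation Lrp5 (0.0647) and Adgra2 (0.0521) were not. Some calls were gained: Lrp6 in the cerebellum without any one of 3 of the WT posterior pituitary libraries (0.0423 to 0.0444), Tspan12 there without WT posterior pituitary parenchyma replicate 1 (0.0161) or 2 (0.016), and Fzd6 in the anterior pituitary by DESeq2 (0.0416). The size of the posterior pituitary differences depended on which parenchyma library was kept. On the log2 scale, Fzd4 was at 5.94 without replicate 2 and 11.29 without replicate 1, Tspan12 at 4.04 and 6.90, and Adgra2 at 9.97 and 4.62.

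The ligands were compared in the parenchyma. All 3 were present in the cerebellum, while Wnt7a and Wnt7b were at 0 or 1 count in every WT pituitary library and Ndp was at 0 in all of them but 1. Wnt7a was at 8.92 and 17.0 CPM in WT cerebellar parenchyma and at 0 in the 4 WT pituitary libraries. The cerebellar level was at least 162-fold higher than in the anterior pituitary (adjusted p = 0.0296) and at least 93.8-fold higher than in the posterior pituitary (adjusted p = 0.0302), taking the mean of the cerebellar libraries and 3 counts in a library as the smallest level that could be told from 0. From the lower cerebellar library these bounds are 111.3 and 64.5. Wnt7b was at 29.2 and 8.06 CPM in the cerebellum, at 1 count in each anterior pituitary library and at 0 in the posterior pituitary. The ratio of summed Wnt7b counts per library size, cerebellum over anterior pituitary, was 730.3 with an exact 95% counting interval of 201.7 to 6037 (adjusted p = 0.0238), and the cerebellum was at least 134.6-fold above the posterior pituitary by its mean (adjusted p = 0.013) and 58.3-fold by its lower library. Ndp was at 26.3 and 13.6 CPM in the cerebellum, at 0 and 2.99 CPM (112 counts) in the anterior pituitary and at 0 in the posterior pituitary. No cerebellar library overlapped a pituitary library for any of the 3 ligands, yet Ndp was not called against the anterior pituitary (3.73 ± 2.28, adjusted p = 0.380) nor, with a cerebellar level at least 144.5-fold higher by its mean and 98.5-fold by its lower library, against the posterior pituitary (adjusted p = 0.0508).

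Thus 2 of 3 ligands were called between the cerebellum and either lobe, where 8.77% (anterior) and 9.88% (posterior) of all genes tested in the parenchyma were called. Between the lobes 0 of 3 were called against 1.67% of all genes, 1 had an unadjusted p below 0.05 and DESeq2 called 1, Ndp. Ndp against the posterior pituitary was called in 13 of 18 alternatives, among them DESeq2 (9.29e-05), the fit of only the groups compared (0.0328), the replicate block (0.0211) and the fits without cerebellar parenchyma replicate 2 (0.0295), stabilized cerebellum replicate 1 (0.021) or 2 (0.0228), WT anterior pituitary replicate 1 (0.00347) or 2 (0.00423), stabilized anterior pituitary replicate 1 (0.00704) or 2 (0.00479), and stabilized posterior pituitary replicate 1 (0.00241) or 2 (0.00252). The Wnt7a call against the anterior pituitary was lost without anterior pituitary replicate 1 (0.0699) or 2 (0.0701), and that of Wnt7b without these libraries (0.0814 and 0.0818) or without cerebellum replicate 1 (0.0992). With the offset for transcript length neither Wnt7a (0.072) nor Wnt7b (0.0528) was called against the anterior pituitary, and Wnt7a was not called against the posterior pituitary (0.0706), nor was it in the fit of only the groups compared (0.0539). The cerebellar parenchyma differed from that of the lobes in its glial markers, with 6 of 6 astrocyte and 4 of 4 oligodendrocyte markers higher against each lobe. Their sums were 5951 and 1549 TPM for astrocytes and 1069 and 3079 TPM for oligodendrocytes in the cerebellum, and at most 76.4 and 7.92 TPM in the pituitary; their part in the ligand difference was not tested. Choroid plexus epithelial markers also stood apart in cerebellar parenchyma replicate 2, at 3643 TPM against 1.81 TPM in replicate 1. Wnt7a was higher in replicate 2, and Wnt7b and Ndp were higher in replicate 1. The part of these markers' cells in the ligand values was not tested.

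ECs themselves held almost no ligand RNA. Wnt7a was at 0 counts in 11 of the 12 EC libraries and at 10 counts in WT cerebellar EC replicate 2, and the sole Wnt7b count was in WT cerebellar EC replicate 1. Ndp was at 32 counts (1.23 CPM) in WT cerebellar EC replicate 2 and at 12 and 14 counts in the stabilized posterior pituitary ECs, and at 0 in the remaining libraries. Wnt7b was lower in cerebellar ECs than in the parenchyma, by a ratio of summed counts of 1284 (exact 95% counting interval 230.1 to 5.076e+04, adjusted p = 0.0399), while Wnt7a (adjusted p = 0.232) and Ndp (adjusted p = 0.328) were not called. The Wnt7b call was lost without cerebellar parenchyma replicate 1 (0.172) and without EC replicate 1 (0.156) or 2 (0.216), with the offset (0.0586) and with a block per preparation (0.107).

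In the input RNA of the RiboTag mice, all 3 ligands were higher in the cortex than in the choroid plexus, where 52.7% of all genes tested were called. Wnt7a was at 5.29 and 5.62 CPM in WT cortex input and at 0.407 and 0.421 CPM, 3 and 4 counts, in the choroid plexus (3.69 ± 0.45, adjusted p = 0.00018, 12.9-fold), but with the offset for transcript length it was at 1.09 and not called (0.37). Wnt7b was at 12.4 and 12.0 CPM in the cortex against 1 and 0 counts, a ratio of summed counts of 205.2 (exact 95% counting interval 36.7 to 8118, adjusted p = 2.155e-05). Ndp was at 3.14 and 1.48 CPM in the cortex against 1 count in each choroid plexus library, a ratio of 19.3 (5.22 to 161.3, adjusted p = 0.003385). The tissues did not overlap for any ligand, but with so large a share of all genes called the count of 3 of 3 is not a result about the ligands.

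**Figure D2:**
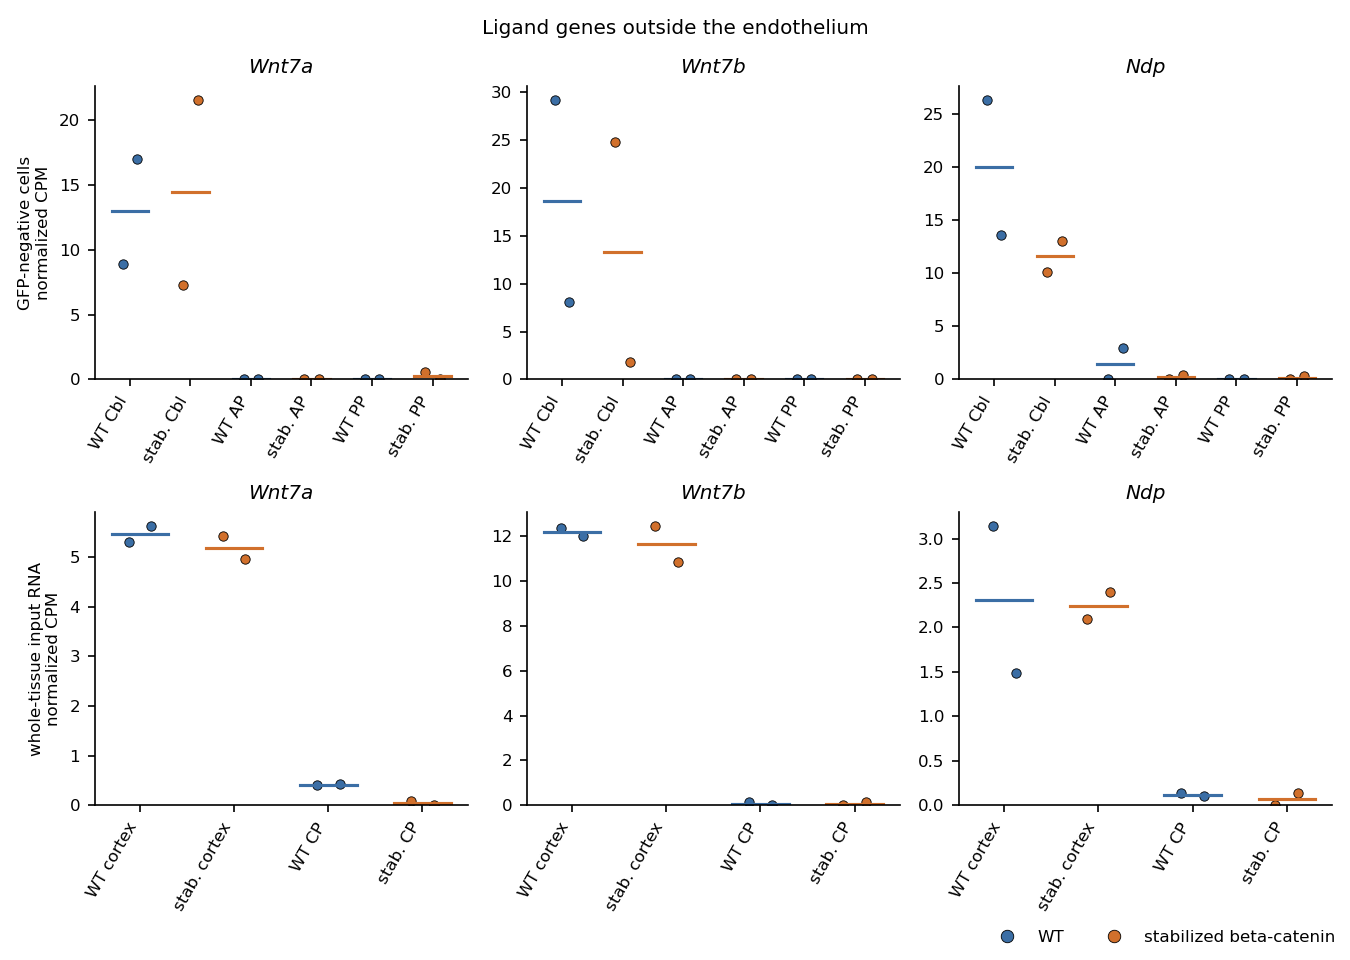
Normalized CPM (linear axis from 0) of Wnt7a, Wnt7b and Ndp in GFP-negative parenchyma of the sorted tissues (top row) and in RiboTag input of cortex and choroid plexus (bottom row); points are the 2 replicates, horizontal lines their means, blue WT and orange stabilized. In the cerebellum WT Wnt7a was at 8.92 and 17.0 CPM and in the pituitary at 0, and the cortex lies above the choroid plexus for each ligand in both genotypes.

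Receptors on ECs of the cortex and the choroid plexus were compared in bound RNA, where 29.7% of all genes tested were called and 3 of the 7 receptor-side genes. Fzd6 was higher in the cortex, and Lrp5 and Lrp6 were higher in the choroid plexus. Fzd6 was at 83.7 and 71.0 CPM in WT cortex and 29.8 and 39.5 CPM in WT choroid plexus (1.16 ± 0.25, adjusted p = 0.007665, 2.235-fold). Lrp5 was at 57.3 and 44.4 CPM against 105.2 and 132.4 CPM (-1.22 ± 0.27, adjusted p = 0.00808, 2.33-fold lower in the cortex). Lrp6 was at 148.1 and 124.1 CPM against 376.6 and 386.2 CPM (-1.49 ± 0.22, adjusted p = 0.00101, 2.81-fold lower). The tissues were apart for these 3 genes. With a median log2 fold change of 0.49 over the 7 genes, the list as a whole leaned neither way strongly.

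The remaining receptor-side genes were not called between cortex and choroid plexus. Adgra2 was at 89.9 and 30.8 CPM in the cortex and 22.3 and 27.7 CPM in the choroid plexus (1.27 ± 0.44, adjusted p = 0.0542). Fzd4 was at 227.5 and 113.1 CPM against 264.7 and 320.1 CPM (-0.78 ± 0.32, adjusted p = 0.0931). For both genes the cortex replicates were far apart, with replicate 1 the higher, but did not overlap the choroid plexus. Tspan12 (36.4 and 20.2 CPM against 14.6 and 20.8 CPM, adjusted p = 0.254) and Reck (34.6 and 22.2 CPM against 22.9 and 17.4 CPM, adjusted p = 0.266) overlapped. Leaving out WT cortex replicate 1 made Fzd4 called (-1.36). Adgra2 was called in 4 of 14 alternatives: by DESeq2 (1.18), with no filter on low counts (1.16), and without WT cortex replicate 2 (1.79) or stabilized choroid plexus replicate 1 (1.25). Fzd6 was not called without WT choroid plexus replicate 1 (0.86, 0.109) nor with an offset for transcript length (0.08, 0.931), and Lrp6 was not called with that offset (-1.30, 0.0633). Markers of choroid plexus epithelium (19090 and 20070 TPM in WT choroid plexus bound RNA) and of microglia (7 of 7 higher in cortex bound RNA) moved with this comparison. Fibroblast markers (4 of 4) were lower and neuronal markers (6 of 6) higher in the cortex, and endothelial markers had a median of -0.97 with 2 of 9 called lower, the direction of Lrp5 and Lrp6. The part of these cells in the comparison was not tested.

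**Figure D3:**
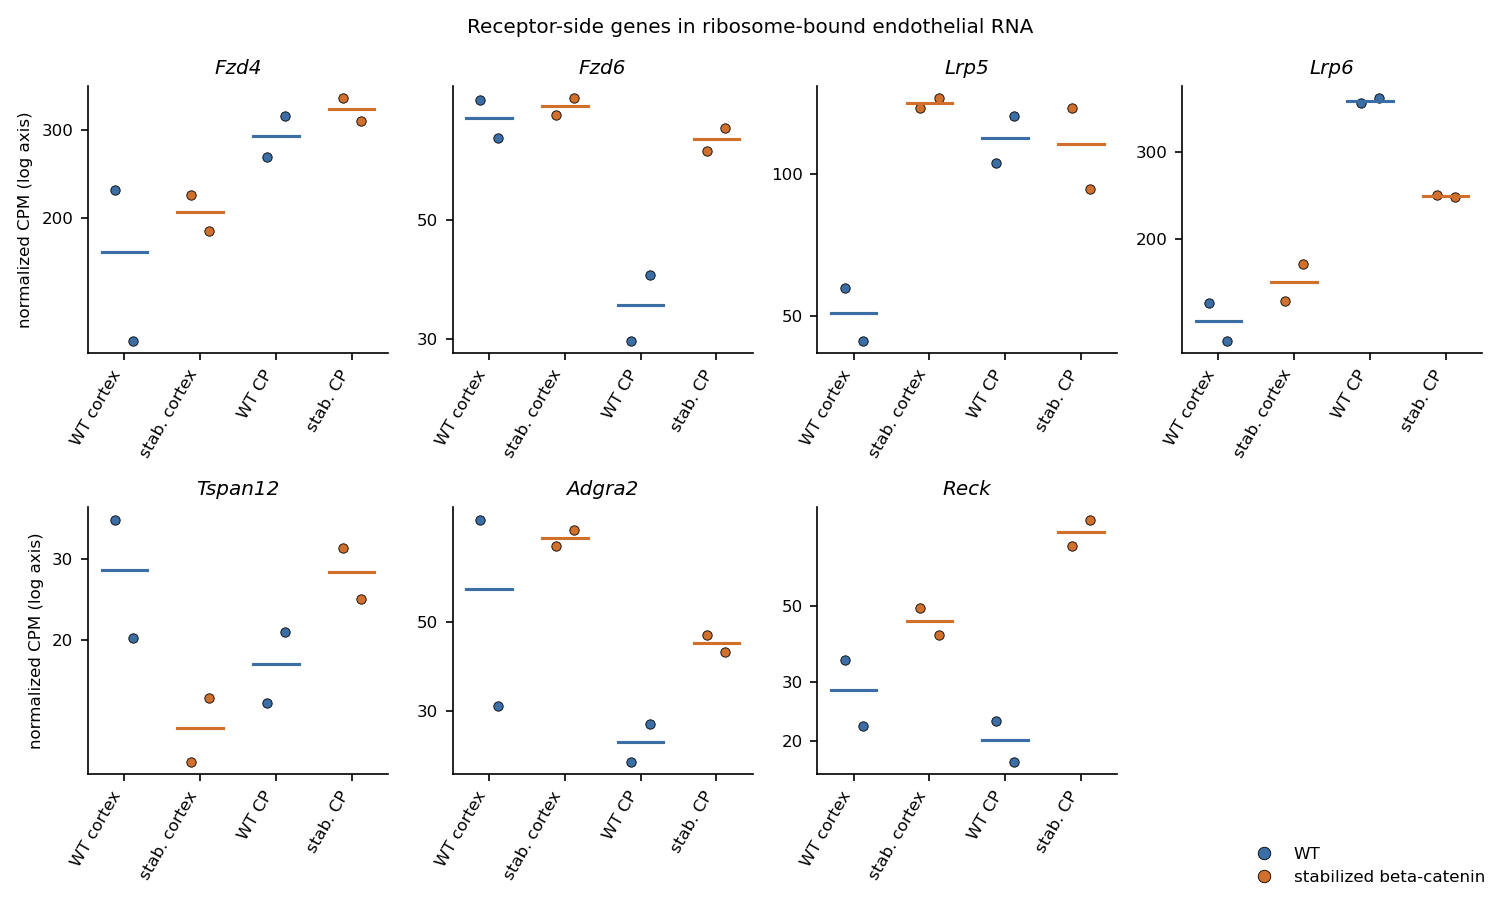
Normalized CPM (log axis) of the 7 receptor-side genes in ribosome-bound RNA of the cortex and the choroid plexus; points are the 2 replicates, horizontal lines their means, blue WT and orange stabilized. In WT mice Lrp6 was at 376.6 and 386.2 CPM in the choroid plexus against 148.1 and 124.1 CPM in the cortex, and Reck in the stabilized choroid plexus lies above the other groups.

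Against the input of the same tissue, 5 of 7 receptor-side genes were higher in cortex bound RNA, with 11.6% of all genes called and CPM normalized over both fractions. Fzd6 was at 68.7 and 63.6 CPM in bound and 4.60 and 6.55 CPM in input RNA (11.9-fold, adjusted p = 1.67e-06). Reck was at 28.4 and 19.9 CPM in bound and 2.12 and 2.83 CPM in input RNA (9.71-fold, adjusted p = 3.99e-06). Fzd4 was at 186.7 and 101.4 CPM in bound and 15.1 and 16.03 CPM in input RNA (9.25-fold, adjusted p = 4.28e-06). These receptors were thus apart from the whole tissue in each pair of libraries. Adgra2 was at 73.8 and 27.6 CPM in bound and 6.01 and 6.55 CPM in input RNA (8.06-fold, adjusted p = 0.0001197), and Lrp5 was at 47.04 and 39.8 CPM in bound and 9.45 and 5.92 CPM in input RNA (5.66-fold, adjusted p = 7.97e-05). Endothelial markers were higher in bound RNA in 9 of 9 cases (median log2 fold change 4.88), but so were microglial markers in 7 of 7 (4.47), whose sum of 1787 and 1217 TPM in WT cortex bound RNA exceeded the 963.8 and 462.9 TPM of the endothelial ones. Their part in the receptor differences was not tested. Lrp6 (0.29, adjusted p = 0.247) and Tspan12 (0.38, adjusted p = 0.503) were not called. In the choroid plexus, where 15.3% of all genes were called, Tspan12 alone was higher in bound RNA, at 12.7 and 18.6 CPM in bound and 1.84 and 2.87 CPM in input RNA (6.59-fold, 2.72 ± 0.41, adjusted p = 0.000517), and the log2 differences of the other 6 genes lay between -0.39 and 0.38. Of the ligands 0 of 3 were called in either tissue by edgeR or DESeq2, with 1 at an unadjusted p below 0.05 in each. In bound RNA of WT cortex Wnt7a was at 2.22 and 5.90 CPM and Wnt7b at 9.43 and 12.0 CPM, against 0 in WT choroid plexus. Wnt7b was at least 25.8-fold higher in the cortex by the mean and 22.8-fold by the lower library (adjusted p = 0.0084), while Wnt7a was not called (at least 9.81-fold and 5.37-fold, adjusted p = 0.0546). Wnt7a was called in 5 of 14 alternatives, among them DESeq2, no filter on low counts and the fit of only the groups compared. Neuronal markers summed to 1188 and 1429 TPM and oligodendrocyte markers to 1058 and 1113 TPM in this WT cortex bound RNA, and their part in the ligand values was not tested.

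Whole-tissue levels of the receptors followed another order. In input RNA all 7 receptor-side genes were called between WT cortex and choroid plexus, 6 of them lower in the cortex, with the 52.7% of all genes as the measure against which this count is read. Fzd4 was at 12.3 and 12.8 CPM in the cortex against 214 and 226.8 CPM in the choroid plexus (17.5-fold, adjusted p = 9.32e-07). Lrp5 (7.73 and 4.73 CPM against 76.8 and 79.4 CPM, 12.55-fold) and Reck (1.74 and 2.27 CPM against 19.0 and 18.0 CPM, 9.19-fold) were lower in the cortex by a similar factor, and Fzd6 (6.50-fold), Lrp6 (5.39-fold) and Adgra2 (3.14-fold) by less. Tspan12 alone was higher in the cortex, at 14.1 and 15.7 CPM against 1.76 and 2.63 CPM (2.73 ± 0.30, adjusted p = 0.0001065, 6.635-fold). The groups were apart for each gene. Endothelial markers (6 of 8 called, median log2 fold change -2.24), mural (4 of 7), fibroblast (4 of 4) and choroid plexus epithelial markers (6 of 6) were also lower in cortex input, and their part in these differences was not tested.

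The genotype comparison asked how the receptor side differs in ECs with stabilized beta-catenin. Reck was the gene called most often: it was higher in stabilized ECs of both pituitary lobes and in choroid plexus bound RNA, and it was not called in the cerebellum or the cortex. Fzd6 was higher in stabilized anterior pituitary ECs and Lrp5 in stabilized cortex bound RNA. By comparison, 0 of 7 were called in the cerebellum against 0.648% of all genes, 2 of 7 in the anterior pituitary against 0.458%, 1 of 7 in the posterior pituitary against 1.79%, 1 of 7 in cortex bound RNA against 6.32% and 1 of 7 in choroid plexus bound RNA against 0.852%. Median log2 fold changes of the 7 genes were -0.09, 0.19 and -0.2 in the 3 sorted tissues and 0.27 and 0.66 in the bound RNA of cortex and choroid plexus.

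Reck was at 9.34 and 8.39 CPM in WT and 35.8 and 37.9 CPM in stabilized anterior pituitary ECs (2.05 ± 0.29, adjusted p = 0.00582, 4.14-fold). In the posterior pituitary it was at 34.0 and 42.0 CPM in WT and 143.7 and 200.7 CPM in stabilized ECs (2.18 ± 0.29, adjusted p = 0.00214, 4.53-fold). In choroid plexus bound RNA it was at 22.9 and 17.4 CPM in WT and 75.2 and 89.8 CPM in stabilized mice (2.03 ± 0.33, adjusted p = 0.0258, 4.08-fold). In each of these tissues the genotypes were well apart, and the stabilized posterior pituitary lay above the WT cerebellar level of 82.3 and 92.5 CPM. In cerebellar ECs the stabilized libraries, at 143.3 and 112.3 CPM, also lay above WT, but the difference was not called (0.55 ± 0.28, adjusted p = 0.530), nor was that in cortex bound RNA (34.6 and 22.2 CPM against 49.5 and 41.1 CPM, 0.67, adjusted p = 0.245). Both pituitary calls held in each fit that left out 1 library. They were lost when the fit held only the groups compared (0.0982 and 0.0521), and the anterior one also with an offset for transcript length (0.0942). The choroid plexus call was lost without WT replicate 1 (0.0601) or 2 (0.0826), without stabilized replicate 2 (0.053), and with the offset (1.04, 0.495). In this comparison endothelial markers summed to 329.6 and 442 TPM in WT and 612.8 and 426.8 TPM in stabilized mice (median log2 fold change 0.66, 0 of 9 called) and choroid plexus epithelial markers to 19090 and 20070 against 13500 and 11890 TPM (-0.91, 0 of 6 called), while 1 of 6 astrocyte markers was called higher. Their part in the Reck difference was not tested.

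Fzd6 was at 4.54 and 5.12 CPM in WT and 11.8 and 36.3 CPM in stabilized anterior pituitary ECs (2.31 ± 0.43, adjusted p = 0.038, 4.96-fold). The stabilized libraries lay above WT but were far apart, and the higher is the library with conflicting labels. Without it the difference was 1.29 (adjusted p = 0.169) and not called. Nor was it called without WT replicate 1 (0.122) or 2 (0.0859), in the fit of the 2 groups alone (0.201) or with the offset for transcript length (0.0706). In cerebellar ECs (346.2 and 252.6 CPM, adjusted p = 1.0) and posterior pituitary ECs (65.7 and 77.1 CPM, -0.31, adjusted p = 0.802) the stabilized values overlapped WT. In choroid plexus bound RNA Fzd6 was at 67.3 and 74.2 CPM in stabilized mice, above WT, without being called (1.03 ± 0.26, adjusted p = 0.114), although DESeq2 called it (0.0175), as did the fit without WT cortex replicate 2 (0.0469).

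Lrp5 was at 57.3 and 44.4 CPM in WT and 137.6 and 144.4 CPM in stabilized cortex bound RNA (1.47 ± 0.27, adjusted p = 0.0157, 2.77-fold). The genotypes were apart. The call was lost without stabilized cortex replicate 1 (0.0736) or 2 (0.0583) and with the offset (1.17, 0.11). Endothelial markers had a median log2 fold change of 1.06 in this comparison, with 2 of 9 called higher, and their part in the Lrp5 difference was not tested. In posterior pituitary ECs Lrp5 stood the other way, at 187.7 and 409.6 CPM in WT and 86.4 and 138.4 CPM in stabilized ECs (-1.41 ± 0.37, adjusted p = 0.0876). This difference was not called, but 10 of 18 alternatives called it. They were DESeq2 (0.00793), the replicate block (-1.38, 0.0373), no filter on low counts (0.00177), the fit without WT posterior pituitary replicate 1 (-1.84, 0.00477), those without stabilized anterior pituitary replicate 1 (0.0124) or the library with conflicting labels (0.0123), and those without any one of the cerebellar EC libraries (0.034 to 0.0383). Endothelial markers moved the same way in this tissue, at 5506 and 4545 TPM in WT and 1219 and 1198 TPM in stabilized ECs, with 2 of 9 called lower. The median log2 TPM ratio of all genes was -0.94 in this comparison, against -0.05 for the count-based fold changes, and on counts the markers had a median of -0.78. Their part in the Lrp5 values was not tested.

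The other receptor-side genes were not called in any of the 5 genotype comparisons. Fzd4 in posterior pituitary ECs was at 712.4 and 1082 CPM in WT against 522.6 and 538.1 CPM in stabilized ECs (-0.76 ± 0.30, adjusted p = 0.288). Adgra2 in the cerebellum was at 232.4 and 191.8 CPM against 123.3 and 133.1 CPM (-0.73 ± 0.29, adjusted p = 0.440). The genotypes were apart in both cases. Tspan12 in cortex bound RNA was at 36.4 and 20.2 CPM against 10.9 and 14.98 CPM (-1.13 ± 0.43, adjusted p = 0.156), and Lrp6 in the anterior pituitary at 87.3 and 117.2 CPM against 139.9 and 188.3 CPM (0.68, adjusted p = 0.674). Adgra2 in cortex bound RNA was called when WT replicate 1 was left out (1.39, 0.0436). In the cerebellum, where edgeR called 0 of 7, 1 gene had an unadjusted p below 0.05 and DESeq2 called 0. Microglial markers summed to 91.7 and 150.7 TPM in stabilized against 5.55 and 2.80 TPM in WT anterior pituitary ECs (0 of 7 called) and to 158 and 132 TPM against 7.35 and 0.489 TPM in the posterior pituitary (2 of 7 called higher). Choroid plexus epithelial markers stood higher in the same stabilized ECs, at 50.1 and 80.8 against 5.76 and 1.90 TPM in the anterior and 241.1 and 292.5 against 40.3 and 24.2 TPM in the posterior pituitary (median log2 fold changes 2.52 and 3.19), with 0 of 6 called in either. In cortex bound RNA microglial markers summed to 1787 and 1217 TPM in WT and 676 and 629 TPM in stabilized mice (0 of 7 called), and in stabilized mice neuronal markers summed to 345.5 and 328 TPM (2 of 7 called lower) and oligodendrocyte markers to 157 and 166 TPM. The TPM of all genes had a median log2 ratio of -0.96 there, against 0 on counts, and on counts the median log2 fold change was -0.16 for microglial, -1.32 for neuronal and -1.19 for oligodendrocyte markers. Their part in the genotype differences was not tested.

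**Figure D4:**
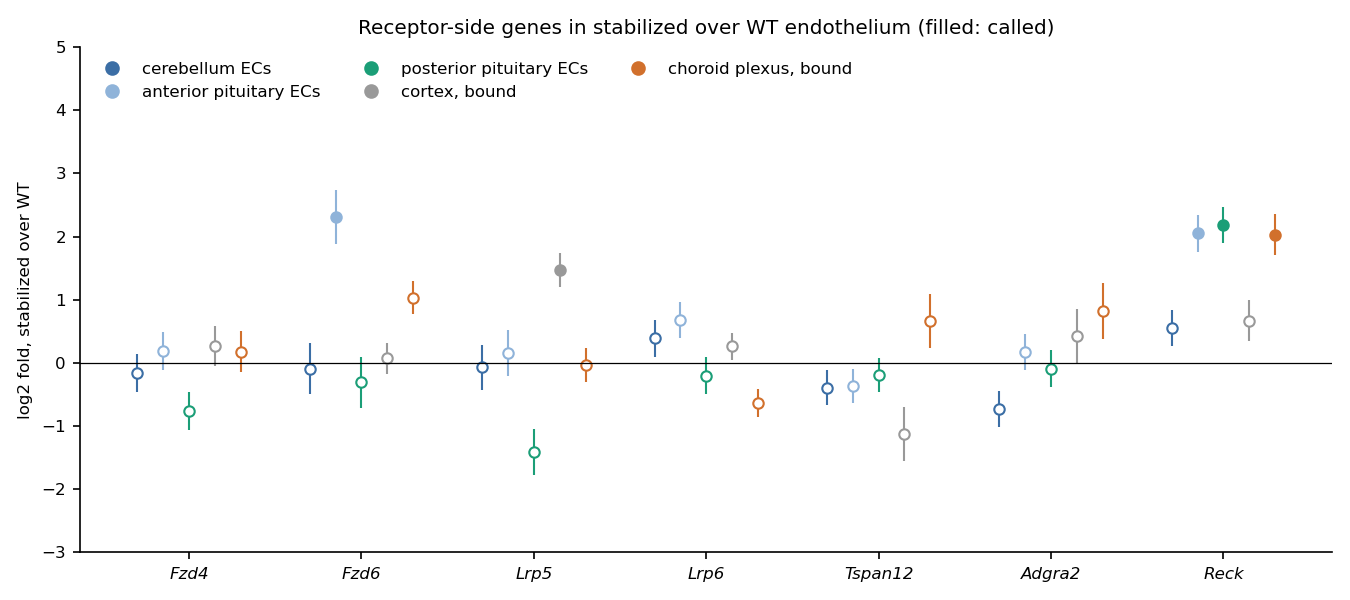
Log2 fold change ± SE, stabilized over WT, of the 7 receptor-side genes in GFP-positive ECs of the 3 sorted tissues and in bound RNA of cortex and choroid plexus; filled points passed the call rule. Reck is filled at 2.05 in the anterior pituitary, 2.18 in the posterior pituitary and 2.03 in the choroid plexus, Fzd6 at 2.31 in the anterior pituitary and Lrp5 at 1.47 in the cortex.

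Whether the genotype effect differed between tissues was tested by interaction terms, and none of the 7 genes was called. The interactions share the libraries of each tissue. Background shares were 0.519% for anterior pituitary minus cerebellum, 0.927% for posterior pituitary minus cerebellum, 0.128% for posterior minus anterior pituitary and 2.15% for choroid plexus minus cortex bound RNA. The interaction for Reck was 1.51 ± 0.40 (adjusted p = 0.162) between anterior pituitary and cerebellum, 1.63 ± 0.39 (adjusted p = 0.0861) between posterior pituitary and cerebellum and 1.36 (adjusted p = 0.16) between choroid plexus and cortex. That for Fzd6 was 2.40 ± 0.59 (adjusted p = 0.126) between anterior pituitary and cerebellum and -2.62 ± 0.59 (adjusted p = 0.165) between the lobes, and that for Lrp5 in bound RNA -1.51 ± 0.38 (adjusted p = 0.0823). At an unadjusted p below 0.05 the counts were 3, 2, 3 and 5 of 7. DESeq2 called Fzd6 (0.00671) and Reck (0.0318) between anterior pituitary and cerebellum, Reck (0.00943) between posterior pituitary and cerebellum, Fzd6 (0.00294) between the lobes and Lrp5 (0.0214) in bound RNA. The edgeR interaction of Fzd6 between anterior pituitary and cerebellum was called without stabilized anterior pituitary replicate 1 (8.23e-05), stabilized cerebellum replicate 1 (0.0349) or WT posterior pituitary replicate 1 (0.0439) or 2 (0.0438). Between the lobes that of Fzd6 was called in 8 of 18 alternatives. These were DESeq2, no filter on low counts (2.15e-05), and the fits without WT cerebellum replicate 1 (0.038) or 2 (0.0486), stabilized cerebellum replicate 1 (0.0456) or 2 (0.0436), WT posterior pituitary replicate 1 (-2.81, 0.019) or stabilized anterior pituitary replicate 1 (-3.21, 5.02e-05). Without the library with conflicting labels it was -1.58 (0.26). That of Lrp5 was called without WT posterior pituitary replicate 1, at -1.79 (0.039) against the cerebellum and -2.01 (0.0226) against the anterior pituitary. A tissue in which a gene passed the call rule is therefore not shown to differ from a tissue in which it did not.

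No ligand was called different between the genotypes of the ECs. In a simulation the parenchyma fit recovered 40% of 8-fold changes, so that a ligand change could be missed there. In stabilized cerebellar parenchyma Wnt7a was at 7.33 and 21.6 CPM, Wnt7b at 24.8 and 1.82 CPM and Ndp at 10.1 and 13.1 CPM. Wnt7a and Wnt7b overlapped their WT values, and Ndp lay below them. In the pituitary the stabilized values stayed near 0, the highest being 0.545 CPM, 13 counts, of Wnt7a in posterior pituitary replicate 1. By edgeR 0 of 3 ligands were called in the parenchyma of the cerebellum (0.76% of all genes called), the anterior pituitary (0.0408%) or the posterior pituitary (0.133%), with 0, 0 and 1 at an unadjusted p below 0.05, none by DESeq2, and no adjusted p under 0.478. In stabilized cortex input Wnt7a was at 5.42 and 4.95 CPM, Wnt7b at 12.5 and 10.9 CPM and Ndp at 2.09 and 2.39 CPM, close to or within the WT range. None was called in the input of the cortex (11.8% of all genes) or of the choroid plexus (0.106%), where at most 1 count per library was seen in stabilized mice; 0 and 1 had an unadjusted p below 0.05 and DESeq2 called 0. In stabilized cortex bound RNA Wnt7a was at 0.436 and 4.28 CPM and Wnt7b at 1.60 and 5.09 CPM.

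In the parenchyma the receptor-side genes were not called between tissues or genotypes. By edgeR 0 of 7 were called in each of the 3 tissue comparisons, with 0, 1 and 1 at an unadjusted p below 0.05 and 0, 0 and 1 called by DESeq2, and 0 of 7 in each of the 3 genotype comparisons, with 0 at an unadjusted p below 0.05 and 0 by DESeq2. These counts depended on WT posterior pituitary parenchyma replicate 1, the library with the higher Fzd4 and Tspan12 (14.7 and 13.0 CPM against 0.369 and 1.84 CPM in replicate 2). Without it Fzd4 and Tspan12 were called for cerebellum over posterior pituitary (6.38, 0.000766 and 4.00, 0.00196), between the lobes (0.00255 and 0.00334) and between genotypes (0.0205 and 0.0385). Without stabilized cerebellar parenchyma replicate 1, Fzd6 (-5.43, 0.012) and Reck (-10.53, 0.0195) were called between genotypes in the cerebellum. In input RNA 0 of 7 were called between genotypes in the cortex, although 4 had an unadjusted p below 0.05 and Adgra2 an adjusted p of 0.0445 at a 1.66-fold lower level, and 0 of 7 in the choroid plexus with 0 at an unadjusted p below 0.05; DESeq2 called 0 in both. The genotype effect in the parenchyma was not called to differ between tissues for any of the 10 genes, against 0.25%, 0.408% and 0.0051% of all genes for anterior pituitary minus cerebellum, posterior pituitary minus cerebellum and posterior minus anterior pituitary, with 0 at an unadjusted p below 0.05 and 0 by DESeq2. Leaving out WT posterior pituitary parenchyma replicate 1 or stabilized cerebellar parenchyma replicate 1, the libraries named above, gave calls for Fzd4 and Tspan12 or for Fzd6 and Reck. Nor was it called in input RNA, against 8.07% of all genes, where 1 ligand had an unadjusted p below 0.05 and DESeq2 called 0.

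Levels between genes were compared in TPM, as the mean ± SD of 2 WT libraries. TPM orders genes within a group, but between groups its scale shifts: the median log2 TPM ratio of all genes was 1.02 for WT cortex over choroid plexus bound RNA and -0.43 for cerebellar over posterior pituitary ECs, against 0 and -0.02 for fold changes on counts. In posterior pituitary ECs the order was Tspan12 at 338.5 ± 170.3, Fzd4 at 93.3 ± 2.68, Lrp5 at 72.0 ± 11.1, Lrp6 at 29.3 ± 4.73, Fzd6 at 15.2 ± 0.152, Reck at 6.34 ± 0.821 and Adgra2 at 4.67 ± 2.61, the last 2 within their spread. In anterior pituitary ECs it was Tspan12 at 185 ± 46.1, Fzd4 at 37.8 ± 3.65, Lrp6 at 35.6 ± 3.67, Lrp5 at 32.5 ± 4.10, Adgra2 at 4.99 ± 2.03, Reck at 1.34 ± 0.0254 and Fzd6 at 0.722 ± 0.106, with Fzd4, Lrp6 and Lrp5 within their spread. In cerebellar ECs Tspan12 was at 93.2 ± 19.7, Fzd6 at 63.0 ± 9.57, Lrp6 at 57.3 ± 10.8, Adgra2 at 26.9 ± 7.41, Fzd4 at 21.1 ± 1.37, Lrp5 at 15.3 ± 3.56 and Reck at 11.8 ± 1.55. There Fzd6 and Lrp6, Adgra2 and Fzd4, and Lrp5 and Reck could not be ranked beyond their spread. Among the 10 WT groups, as a description on that scale, the highest TPM of Fzd6 and Adgra2 was in cerebellar ECs and that of Fzd4, Lrp5 and Tspan12 in posterior pituitary ECs. Reck was highest in posterior pituitary parenchyma, where its libraries were far apart, with 1.92 and 30.5 TPM in libraries that held 14.3 and 6.77 CPM. Bound RNA held Fzd4 at 18.9 ± 3.29 TPM in the choroid plexus and 18.7 ± 9.21 TPM in the cortex, and in the cortex Fzd6 at 12.9 ± 1.85 and Adgra2 at 7.66 ± 3.28 TPM. Lrp6 was at 63.0 ± 15.2 TPM in choroid plexus and 58.0 ± 36.6 TPM in cortex bound RNA, although on counts it was called lower in the cortex. The lowest level of Tspan12 was in choroid plexus input (0.314 ± 0.0863 TPM). The ligands were lower, with Wnt7a at 3.93 ± 0.548 TPM in cortex input, Wnt7b at 4.02 ± 0.240 TPM in cortex bound RNA and 3.96 ± 0.0655 TPM in cortex input, and Ndp at 10.2 ± 8.13 TPM in cerebellar parenchyma as their highest levels.

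TPM depends on which transcript the reads were assigned to, and the first place of Tspan12 rests on it. By the TPM of the main transcript alone, the one with the most counts over all libraries, Tspan12 was at 15.7 in WT cerebellar ECs, below Fzd6 at 44.6 and Fzd4 at 21.1, and at 56.2 in posterior pituitary ECs, below Fzd4 at 93.3. In anterior pituitary ECs it stayed first, at 59.4 against 37.8 for Fzd4. The share of a gene's counts on its main transcript ranged most widely for Adgra2 (0% to 93%), Lrp5 (0% to 77.5%) and Tspan12 (0% to 68.6%) over the 12 EC libraries. The main Lrp6 transcript held 78.6% to 98.9% of the gene's counts in these libraries but 12.3% to 78% of its TPM, and the main Reck transcript held 90.7% to 100% of the counts and 22.2% to 100% of the TPM. Fzd4 has 1 transcript in the annotation, so that its TPM carries no such choice.

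The rest of the pathway was described from 5 lists with 50 genes in all: other Frizzled receptors (8), other Wnt ligands (17), Wnt secretion (2), Wnt inhibitors (14) and the R-spondin axis (9). In WT ECs, where 36 were tested, 5 were higher in the cerebellum than in the anterior pituitary (Wnt5a, Wnt5b, Wls, Dkk2 and Notum) and 3 than in the posterior pituitary (Wnt5a, Wnt5b and Notum), and none was lower, where 5.26% and 4.4% of all genes were called. Notum, a secreted enzyme that inactivates Wnts and is itself a target of the pathway, was at 85.0 and 47.9 CPM in cerebellar ECs and at 0 in the 4 WT pituitary EC libraries, at least 705-fold and 364-fold higher by the mean and 508.5-fold and 263-fold by the lower library (adjusted p = 3.39e-05 and 6.57e-05). Wls, which escorts Wnts out of the cell, was at 93.6 and 90.6 CPM against 43.5 and 32.8 CPM in the anterior pituitary (1.27 ± 0.31, adjusted p = 0.0322), a call that held in 10 of 18 alternatives and was lost without any one of the 4 libraries compared (0.0801 to 0.269) or of the 2 stabilized posterior pituitary libraries (0.0515 and 0.0512). Wnt5a was at 87.3 and 64.4 CPM against 0 in the anterior pituitary, at least 804-fold higher by the mean and 683-fold by the lower library (adjusted p = 1.33e-06); it was singled out after its values were seen. With stabilized beta-catenin Notum and Wnt5a were called higher in both lobes and no other of these genes was called, against 0.458% and 1.79% of all genes. Notum reached 2.42 and 5.22 CPM in the anterior pituitary, at least 40.5-fold above WT by the mean. The higher of these values is from the library with conflicting labels, and from the other library the bound is 25.7-fold. In the posterior pituitary Notum reached 29.0 and 45.6 CPM, at least 204-fold above WT by the mean and 159-fold by the lower library. Wnt5a was at 63 and 70 counts in the stabilized against 2 and 1 counts in the WT posterior pituitary, a ratio of summed counts of 52.4 (exact 95% counting interval 17.5 to 257.1, adjusted p = 0.000363), and at 4 and 8 counts in the stabilized against 0 in the WT anterior pituitary, at least 2.56-fold higher by the mean and 1.51-fold by the lower library. The 8 counts are of the library with conflicting labels, and without it Wnt5a was not called in the anterior pituitary (adjusted p = 0.147), nor was it without WT replicate 1 (0.0933) or 2 (0.0906). When the fit held only the groups compared, Notum was not called in the anterior (0.201) nor Wnt5a in the posterior pituitary (0.279). The stabilized cerebellum had 0 calls by edgeR, 3 at an unadjusted p below 0.05 and 2 by DESeq2, and the lobes differed in 0, 4 and 1.

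In the parenchyma 38 of the 50 genes were tested. The Wnt-binding inhibitor Wif1 was at 22.2 and 31.1 CPM in the cerebellum and at 0 in both lobes, at least 332.5-fold higher than the anterior and 193-fold higher than the posterior pituitary by the mean and 277-fold and 161-fold by the lower library. By in situ hybridization, a different measure, the paper saw Wif1 in the area postrema alone on a section with part of the cerebellum. The part of the choroid plexus epithelial markers of cerebellar parenchyma replicate 2 in the Wif1 values was not tested. Fzd1 was at 515 and 225 CPM in the cerebellum against 21.3 and 13.9 CPM in the anterior (4.40 ± 0.54, adjusted p = 0.0002265) and 22.5 and 12.0 CPM in the posterior pituitary (4.42 ± 0.54, adjusted p = 0.000221). In all, 6 genes were higher and 0 lower in the cerebellum than in the anterior pituitary, and 5 were higher and 2 lower than in the posterior pituitary, against 8.77% and 9.88% of all genes. Those lower were Wnt5b (2.82 and 1.33 CPM against 91.8 and 37.3 CPM, -4.95 ± 0.99, adjusted p = 0.00649) and Lgr5, an R-spondin receptor (1.16 and 3.73 CPM against 42.5 and 81.5 CPM, -4.66 ± 0.88, adjusted p = 0.00465). Lgr5 was also lower in the anterior than in the posterior pituitary (0.266 and 0.535 CPM, -7.26 ± 1.0, adjusted p = 0.00313). Between genotypes 0 of 38 were called in each tissue, with 5, 2 and 2 at an unadjusted p below 0.05 and 3, 1 and 0 called by DESeq2. Against the parenchyma, of 44 genes tested, ECs were higher in 1, 0 and 1 and lower in 6, 6 and 8 in the cerebellum, the anterior and the posterior pituitary, against 11.3%, 11.3% and 14.5% of all genes. Fzd1, at 16.9 and 8.33 CPM in cerebellar ECs against 547.4 and 232.9 CPM in that fit (-4.95 ± 0.84, adjusted p = 0.000659), and Wif1, at 0 against 23.6 and 32.2 CPM (at least 252-fold lower by the mean and 214-fold by the lower library, adjusted p = 0.0248), were lower in cerebellar ECs. The Wif1 call was lost by DESeq2 (0.195), with a block per preparation (0.0979) and without cerebellar parenchyma replicate 2 (0.076) or EC replicate 1 (0.142) or 2 (0.118). Fzd3, at 9.26 and 36.0 CPM against 248.6 and 227.9 CPM (-3.40 ± 0.55, adjusted p = 0.000245), and Wnt5b, at 0.150 and 0 CPM against 95.2 and 38.3 CPM (adjusted p = 0.000313), were lower in posterior pituitary ECs.

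In bound RNA 32 of these genes were tested, and 4 were higher (Fzd3, Wnt3, Wnt5a and Notum) and 6 lower (Fzd7, Wls, Sfrp5, Kremen1, Sfrp1 and Sostdc1) in WT cortex than in choroid plexus. Since 29.7% of all genes were called, these 10 of 32 are no result about the list. Fzd3 was at 176 and 236 CPM in the cortex against 22.1 and 31.1 CPM (2.95 ± 0.38, adjusted p = 0.00045), Wls at 27.2 and 36.8 CPM against 152.6 and 177 CPM (-2.37 ± 0.26, adjusted p = 0.0002175) and the inhibitor Sostdc1 at 0 and 1.08 CPM against 493 and 348 CPM. Between genotypes Fzd3 was lower in stabilized cortex (66.5 and 79.0 CPM, -1.50 ± 0.36, adjusted p = 0.0393), though not without WT replicate 2 (0.0926) or stabilized replicate 1 (0.212) or 2 (0.125), and Notum was higher in stabilized choroid plexus, at 6.45 and 9.39 CPM against 0, at least 19.1-fold by the mean and 15.6-fold by the lower library. In input RNA, of 35 tested, 12 were higher and 11 lower in the cortex, a share to be read against the 52.7% of all genes, 2 were higher and 3 lower in the stabilized cortex (11.8% of all genes), and 0 were called in the stabilized choroid plexus (3 at an unadjusted p below 0.05, 0 by DESeq2). Between the tissues the input repeated the bound order for Fzd3 (271.9 and 273.5 CPM in the cortex against 40.9 and 41.0 CPM), Wls (19.0 and 22.6 CPM against 196.8 and 223.1 CPM) and Sostdc1 (0.868 and 0.820 CPM against 1042 and 959.8 CPM), and Fzd3 was lower in stabilized cortex input as well (113.6 and 143.2 CPM, -1.09 ± 0.13, adjusted p = 0.00155), though by less than 2-fold without stabilized replicate 1 (-0.93).

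Open chromatin in ECs of the sorted tissues was read from the peaks that MACS2 had called in each library. Peaks had to be enriched more than 2-fold over background and to reach a -log10 q above 2. A peak counted as gained where both stabilized libraries and neither WT library of a tissue held an overlapping peak, and as lost in the reverse case. Within 100 kb of the 10 genes 42 peaks were gained and 2 lost. By tissue 10 of 83 (12%) were gained in the cerebellum, 10 of 90 (11.1%) in the anterior pituitary and 22 of 72 (30.6%) in the posterior pituitary, where genome-wide 18.2%, 7.67% and 29.2% of peaks were. Lost peaks were 1 of 60 (1.67%), 0 of 75 and 1 of 50 (2%), against 3.37%, 6.02% and 3.18%. The gained share near the 10 genes was close to that of the genome in the posterior pituitary, lower in the cerebellum and higher in the anterior pituitary, and the lost shares were lower in all 3 tissues. These differences were not tested. Gained and lost rest on presence in peak lists of unequal size. Peaks in both libraries numbered 20617 in WT and 28955 in stabilized cerebellum, 33479 and 36877 in the anterior and 17941 and 27267 in the posterior pituitary. The part of list size was not tested. Read counts, which the paper compared, gave more regions lost than gained in the cerebellum. By gene, the gained peaks in cerebellum, anterior and posterior pituitary numbered 3, 0 and 2 near Fzd4, 1, 3 and 4 near Fzd6, 1, 1 and 2 near Lrp5, 2, 0 and 2 near Lrp6, 0, 1 and 3 near Tspan12, 0, 1 and 1 near Adgra2, and 1, 3 and 2 near Reck. Near the ligands they numbered 0, 0 and 1 for Wnt7a, 1, 1 and 5 for Wnt7b and 1, 0 and 0 for Ndp. Both lost peaks lay at one place in an intron of Wnt7b, in the cerebellum at chr15:85542120-85542330 with fold enrichments of 5.288 and 5.352 in WT ECs, and in the posterior pituitary at chr15:85542092-85542325 with 5.573 and 4.29.

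The start of Reck was open in all 12 libraries, at chr4:43875280-43875579 with fold enrichments between 8.63 and 16.13, as were those of Fzd4 (chr7:89404116-89404415, 8.83 to 11.98) and Tspan12 (chr6:21852484-21852783, 6.51 to 11.2). No library had a peak at the start of Ndp or Wnt7a. Near Reck, the gene called in most genotype comparisons, gained peaks lay in its introns and beyond its end, in Glipr2. A place in Glipr2 was gained in both lobes, at chr4:43973564-43973970 in the anterior (fold enrichments 4.278 and 5.296) and chr4:43973618-43973817 in the posterior pituitary (3.136 and 6.876). In the cerebellum a peak in Glipr2 at chr4:43972160-43972445 (3.107 and 2.558) was gained. The intronic peaks each counted as gained in a single lobe. In anterior pituitary ECs these were chr4:43884245-43884504 (4.146 and 5.457) and chr4:43884627-43884856 (5.853 and 5.457), and in the posterior pituitary chr4:43925833-43926060 (4.342 and 3.657). They are printed from the plus strand of GRCm38, on which Reck is transcribed, to show which intronic sequence was open in the stabilized but not the WT libraries of a lobe.
Reck intron, chr4:43884245-43884504: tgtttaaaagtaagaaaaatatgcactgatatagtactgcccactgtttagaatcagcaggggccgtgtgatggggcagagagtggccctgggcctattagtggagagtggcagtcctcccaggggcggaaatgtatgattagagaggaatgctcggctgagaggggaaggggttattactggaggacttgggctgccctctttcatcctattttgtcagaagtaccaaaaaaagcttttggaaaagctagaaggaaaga
Reck intron, chr4:43884627-43884856: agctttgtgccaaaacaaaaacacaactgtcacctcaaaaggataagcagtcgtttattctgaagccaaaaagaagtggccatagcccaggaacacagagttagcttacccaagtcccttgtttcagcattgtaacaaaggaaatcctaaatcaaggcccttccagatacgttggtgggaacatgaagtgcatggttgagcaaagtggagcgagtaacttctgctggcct
Reck intron, chr4:43925833-43926060: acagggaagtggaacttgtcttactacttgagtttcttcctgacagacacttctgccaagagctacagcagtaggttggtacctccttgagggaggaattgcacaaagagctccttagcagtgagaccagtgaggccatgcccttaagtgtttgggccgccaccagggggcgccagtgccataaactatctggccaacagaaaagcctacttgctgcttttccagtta
The first and the second of these places were also open in stabilized posterior pituitary replicate 2 (4.572), and the second in WT cerebellum replicate 1 (5.995). The place in the third sequence was open in the stabilized anterior pituitary (5.121 and 5.717) and in WT anterior pituitary replicate 2 (4.976) too. Each of the printed places was thus called in some library outside the tissue in which it counted as gained.

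Near Fzd6 the anterior pituitary gained an intronic peak at chr15:39018760-39019032, with fold enrichments of 4.146 and 4.158 in the stabilized libraries and no peak in WT. In cerebellar ECs, where Fzd6 is high, the same place was open in both genotypes (7.88 and 8.565 in WT, 10.12 and 7.672 in stabilized ECs). Its sequence is printed because it holds ATCAAAG, a letter pattern that can be bound by the TCF and LEF factors through which beta-catenin acts. The call of higher Fzd6 RNA in the stabilized anterior pituitary rests on the library with conflicting labels (log2 fold change 1.29 without it). A link between this peak and the RNA was not tested.
Fzd6 intron, chr15:39018760-39019032: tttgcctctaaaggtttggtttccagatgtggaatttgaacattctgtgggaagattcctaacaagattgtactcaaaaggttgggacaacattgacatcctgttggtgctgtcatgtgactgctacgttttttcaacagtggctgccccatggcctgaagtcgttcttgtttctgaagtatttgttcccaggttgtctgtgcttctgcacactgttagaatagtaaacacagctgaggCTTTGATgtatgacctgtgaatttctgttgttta
The peak is given on the plus strand and the match lies on the minus strand, at chr15:39018999-39019005. TTCAAAG and ATCAAAG were searched on both strands in the 201 bases around each summit. In these windows 9 of the 42 gained peaks held one, and of the 2 lost peaks none. Over their whole length 13 of the 42 held one, the other four being peaks of the anterior pituitary near Fzd6, Tspan12 and Adgra2 and of the cerebellum near Fzd4, and again none of the lost peaks. Among all gained peaks 12.9% in the cerebellum, 21.6% in the anterior and 15.1% in the posterior pituitary held one, among WT peaks 7.44%, 4.43% and 3.04%, and among all promoter windows of 300 bases 8.65%. These shares are for windows of 201 bases, apart from the promoters. The 9 matches of the windows are shown on the strand of the match, in capitals, with 20 bases on either side, so that their flanks can be compared.
Fzd6, anterior pituitary, chr15:39018979-39019025, minus strand: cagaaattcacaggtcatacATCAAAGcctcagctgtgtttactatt
Fzd6, anterior pituitary, chr15:39078676-39078722, plus strand: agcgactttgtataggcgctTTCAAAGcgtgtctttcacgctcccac
Fzd6, posterior pituitary, chr15:38933026-38933072, plus strand: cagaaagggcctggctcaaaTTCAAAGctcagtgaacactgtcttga
Fzd6, posterior pituitary, chr15:39042058-39042104, plus strand: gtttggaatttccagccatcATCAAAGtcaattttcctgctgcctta
Lrp5, cerebellum, chr19:3719246-3719292, plus strand: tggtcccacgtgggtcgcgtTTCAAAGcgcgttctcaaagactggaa
Lrp5, posterior pituitary, chr19:3665715-3665761, plus strand: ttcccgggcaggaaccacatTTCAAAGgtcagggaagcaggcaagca
Lrp6, cerebellum, chr6:134592622-134592668, plus strand: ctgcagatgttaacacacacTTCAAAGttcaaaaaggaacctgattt
Tspan12, posterior pituitary, chr6:21850829-21850875, plus strand: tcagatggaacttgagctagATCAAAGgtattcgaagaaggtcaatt
Wnt7b, posterior pituitary, chr15:85645439-85645485, minus strand: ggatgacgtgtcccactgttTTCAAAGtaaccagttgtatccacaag
Matches in the windows stood near Fzd6 in 4 peaks, near Lrp5 in 2 and near Lrp6, Tspan12 and Wnt7b in 1 each, and 6 of the 9 read TTCAAAG. No match was found in the gained peaks near Reck, nor in the 5 promoter windows (Fzd4, Ndp, Reck, Tspan12 and Wnt7a) for which RefSeq sequence of GRCm38.p6 was at hand. A match describes the letters of a window and not the binding of a factor.

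**Figure D5:**
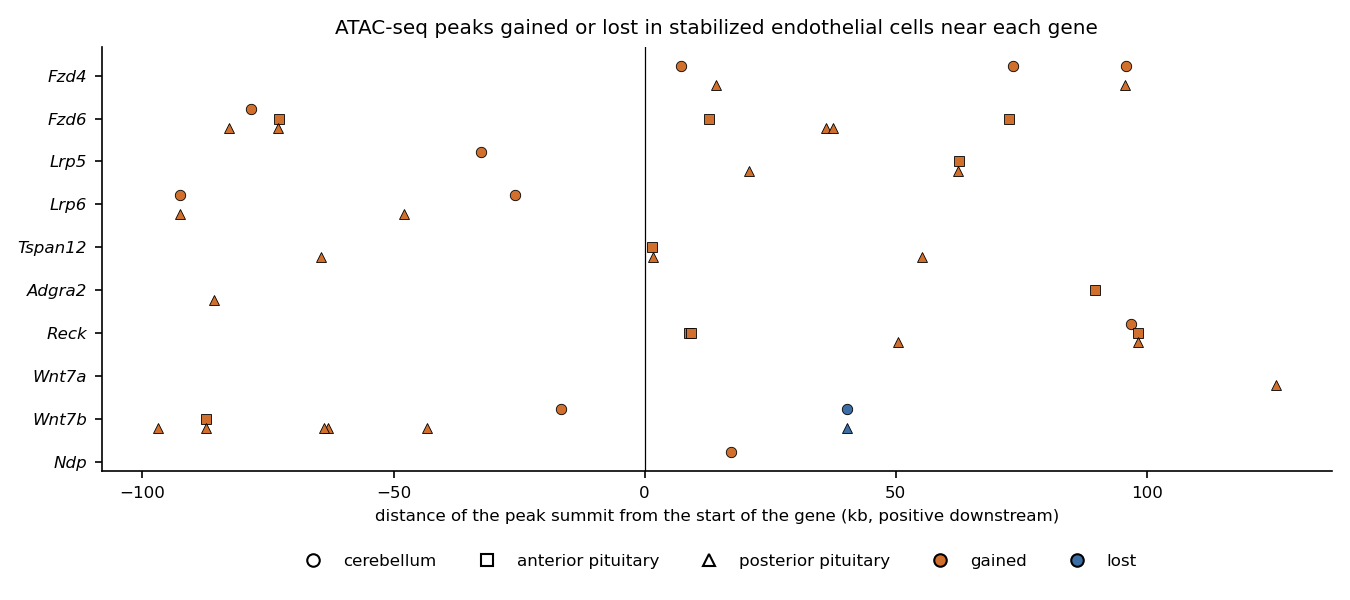
Distance (kb) from the gene start to the summits of the peaks gained and lost within 100 kb of the body of each gene, by tissue (circle cerebellum, square anterior pituitary, triangle posterior pituitary). The 42 gained peaks spread on both sides of the starts, 22 of them in the posterior pituitary, and the 2 lost peaks coincide in Wnt7b.

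Of the gained pituitary peaks near the 10 genes, 2 of 10 in the anterior lobe (near Fzd6 and Wnt7b) were open in both WT cerebellar libraries, against 20.2% of all gained peaks, and 3 of 22 in the posterior lobe (near Lrp6, Tspan12 and Wnt7b), against 30.2%.

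The genes whose pattern was most like that of each member were ranked by Pearson's r of mean log2(TPM + 1) over the 20 RNA groups, among 10635 genes, as a description. The groups share libraries of the same mice and of the same fraction. For Fzd4 they were Emcn (0.97), Cavin2 (0.97) and Ptpn14 (0.96), and for Fzd6 Arl4a (0.92), Foxf2 (0.91) and Rassf9 (0.91). For Lrp5 they were Col4a1, Rhoj and Dysf (0.95 each), while for Lrp6 the closest, Dnajb11 (0.82), Aifm1 (0.80) and Iqce (0.76), were less alike. For Tspan12 they were Slc50a1 (0.97), Map4k5 (0.94) and 1700123O20Rik (0.94), for Adgra2 Vwa1 (0.96), Rnf144b (0.95) and Slc30a1 (0.94), and for Reck AI467606 (0.91), Ifit1 (0.90) and Oas1a (0.88). For the ligands they were S1pr5, Cntn6 and Prr18 (0.97 each) with Wnt7a, Adcyap1 (0.99), Olig1 (0.98) and Tmeff2 (0.97) with Wnt7b, and Slc13a5 (0.96), Megf10 (0.95) and Sox1 (0.94) with Ndp. Among the members themselves r was 0.89 for Fzd4 with Lrp5, 0.85 for Fzd6 with Reck, 0.81 for Fzd6 with Adgra2, 0.87 for Wnt7a with Wnt7b, 0.75 for Wnt7a with Ndp and 0.65 for Wnt7b with Ndp. Lrp6 had 0.17 to 0.41 with the other receptor-side genes. With a pseudocount of 0.1 in place of 1, between 1 and 3 of the 3 genes named for each member stayed the same.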

How the data were processed

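Adult male mice gave 40 RNA libraries and 12 ATAC-seq libraries, 2 per group. The authors quantified the RNA with Salmon 0.10.2 on GRCm38, and their deposited files give estimated counts and TPM per transcript (kallisto 0.44.0, also named in the submitters' processing notes, made alignments for a genome browser, by the study's methods). RNA of the sorted cells had been amplified with the NuGEN Ovation kit and read single-end. The ATAC-seq reads were aligned with Bowtie2 2.3.2, and the authors called peaks in each library with MACS2 2.1.1.20160309; their deposited peak lists give the fold enrichment as a ratio over background and the -log10 of the q-value.

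Counts and TPM were summed per gene with GENCODE M21 (130740 transcripts per file, of which 402, with at most 0.385% of a library's counts, could not be matched). Summed counts were rounded to whole numbers and tested with edgeR 4.0.16 (TMM, filterByExpr, quasi-likelihood F test with Benjamini-Hochberg adjustment over all genes of a fit), with limma 3.58.1, in R 4.3.3. The fits held all groups of one fraction, or both fractions of one experiment for ECs over parenchyma and bound over input. They gave 23 comparisons and 8 interactions. The titles give both fractions of a group the same replicate numbers, so that they may come from 1 sort or lysate, and blocked fits are given where they change the call of a member. The authors compared groups with EBSeq on tximport values; edgeR was used here since EBSeq was not at hand. The tested genes numbered 17915 in ECs, 19612 in the parenchyma, 16775 in bound and 16085 in input RNA. SE is the log2 fold change divided by the root of F. Folds against a group at 0 use a floor of 3 counts in 1 library. Intervals and floors cover counting error only. DESeq2 1.42.0 and the other alternatives are given in the closing part. In a simulation with 50 genes changed at each fold, the fit of posterior pituitary ECs recovered 0% of 2-fold, 22% of 4-fold, 48% of 8-fold and 62% of 16-fold changes, and that of choroid plexus bound RNA 4%, 60%, 82% and 94%. The fit of posterior pituitary parenchyma recovered 0%, 14%, 40% and 60%, and that of choroid plexus input 40%, 86%, 100% and 100%. Python 3.11.15, pandas 2.3.3, numpy 2.4.6, scipy 1.17.1 and matplotlib 3.10.9 did the rest. The depth of each library is the sum of its estimated counts.

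The members and the gene lists were chosen with earlier results of these data known. All 10 members were named in each comparison, and of each pathway list the called gene with the largest change in either direction and at least 10 TPM in both libraries of the higher group; other pathway genes were named after their values were seen. Sequences came from the GRCm38 genome, and promoter windows (250 bases before to 50 after a start) from RefSeq, GRCm38.p6, where 5 of the 10 members matched.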

Additional observations from a re-analysis of the deposited data

Results flagged for a closer look

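None of the 10 members met a rule for a closer look, and all groups held 2 libraries, too few for a test of single deviating samples. Of the 50 other pathway genes, 6 had genotype effects that differed between tissues by the edgeR interaction test: Notum and Wnt5a in ECs, Notum in bound RNA, and Fzd3, Frzb, Fzd2 and Sostdc1 in input RNA. Notum was at 85.0 and 47.9 CPM in WT and 85.5 and 44.0 CPM in stabilized cerebellar ECs, while both pituitary lobes went from 0 in WT to 2.42 and 5.22 CPM (anterior) and 29.0 and 45.6 CPM (posterior) in stabilized ECs. The difference from the cerebellum had an adjusted p of 0.00746 for the anterior pituitary, with a range of 9.87e-12 to 0.0336 over 18 alternatives, and of 0.00106 for the posterior pituitary (1.22e-20 to 0.00328). Wnt5a was at 87.3 and 64.4 CPM in WT and 302.2 and 211.3 CPM in stabilized cerebellar ECs, and went from 2 and 1 counts to 63 and 70 counts in the posterior pituitary (adjusted p = 0.0251, range 0.000114 to 0.036). In bound RNA Notum was at 11.5 and 7.29 CPM in WT and 31.6 and 18.9 CPM in stabilized cortex, and went from 0 to 6.45 and 9.39 CPM in the choroid plexus (adjusted p = 0.0399). That last call was lost in 6 of 14 alternatives: with the replicate block (0.0557), with the offset for transcript length (0.137), without stabilized cortex replicate 1 (0.106) or 2 (0.0993) and without WT choroid plexus replicate 1 (0.0722) or 2 (0.0631). The stabilized libraries were higher than WT in 2 of 2 libraries of each lobe and of the choroid plexus. Each of these Notum and Wnt5a interactions rests on a WT group at or near 0.

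In input RNA, where 8.07% of all genes had a genotype effect that differed between choroid plexus and cortex, the WT and stabilized cortex values were 271.9 and 273.5 against 113.6 and 143.2 CPM for Fzd3, 11.87 and 11.99 against 2.95 and 3.99 CPM for the inhibitor Frzb, 3.68 and 4.76 against 7.79 and 8.38 CPM for Fzd2, and 0.868 and 0.820 against 1.43 and 4.39 CPM for the inhibitor Sostdc1. In the choroid plexus they were 40.9 and 41.0 against 42.2 and 44.8 CPM for Fzd3, 1.63 and 1.16 against 3.87 and 2.36 CPM for Frzb, 25.8 and 18.0 against 18.0 and 17.7 CPM for Fzd2, and 1042 and 959.8 against 818.2 and 831.7 CPM for Sostdc1. The interaction, choroid plexus minus cortex on the log2 scale, was 1.17 ± 0.19 (SE) for Fzd3 (adjusted p = 0.0103), 2.97 ± 0.48 for Frzb (0.00999), -1.23 ± 0.32 for Fzd2 (0.0495) and -2.08 ± 0.53 for Sostdc1 (0.0456). The cortex libraries of the genotypes did not overlap for any of the 4 genes. Choroid plexus epithelial markers summed to 15.8 and 173.9 TPM in stabilized against 6.97 and 6.28 TPM in WT cortex input (2 of 6 called higher), with the highest value in the replicate that held 4.39 CPM of Sostdc1. Their part in the Sostdc1 difference was not tested. The call of Frzb held in 14 of 14 alternatives (5.66e-06 to 0.0473) and that of Fzd3 in 13 (2.12e-07 to 0.103, lost with the offset for transcript length). Those of Fzd2 (0.00948 to 0.156) and Sostdc1 (5.41e-11 to 0.236) were each lost in 9 of 14: with the replicate block (0.0874 and 0.0808), Fzd2 also with RLE normalization (0.0525) and Sostdc1 with the offset (0.236), and without single libraries. For Fzd2 these were WT cortex replicate 1 (0.106) or 2 (0.0543), stabilized cortex replicate 1 (0.103) or 2 (0.105), WT choroid plexus replicate 1 (0.156) and stabilized choroid plexus replicate 1 (0.125) or 2 (0.13). For Sostdc1 they were WT cortex replicate 1 (0.105) or 2 (0.119), stabilized cortex replicate 2 (0.129), WT choroid plexus replicate 1 (0.119) or 2 (0.0989) and stabilized choroid plexus replicate 1 or 2 (0.107 each).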

How the results depend on the processing

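Over the receptor-side genes, 14 calls between WT EC tissues, 3 between EC genotypes, 3 between WT bound RNA of the cortex and choroid plexus and 2 between bound genotypes were reported. Over the ligands there were 4 in WT parenchyma, 3 in WT input and 0 between genotypes in either, and over all members 13 between ECs and parenchyma and 6 between bound and input RNA. With an offset for effective transcript length these became 8 (EC tissues), 1 (EC genotypes), 1 (bound tissues), 0 (bound genotypes), 1 (ligands in the parenchyma), 2 (ligands in input) and 7 (ECs over parenchyma). With only the groups compared in the fit they became 7 (EC tissues), 0 (EC genotypes) and 11 (ECs over parenchyma), with 4 (ligands in the parenchyma), 3 (bound tissues) and 2 (bound genotypes) as before. DESeq2 gave 15 for EC tissues, 4 for EC genotypes, 6 for ligands in the parenchyma, 14 for ECs over parenchyma, 4 for bound tissues and 3 for bound genotypes. Leaving out 1 library at a time gave 9 to 15 (EC tissues), 2 to 4 (EC genotypes), 3 to 5 (ligands in the parenchyma), 0 to 0 (ligands between genotypes, parenchyma and input), 8 to 15 (ECs over parenchyma), 2 to 4 (bound tissues), 1 to 3 (bound genotypes), 3 to 3 (ligands in input) and 6 to 6 (bound over input). Without the library with conflicting labels the counts were 15 (EC tissues), 3 (EC genotypes) and 13 (ECs over parenchyma). For single genes of the text, 95 called results kept the call in 1459 alternative values and lost it in 138, and 232 results that were not called stayed so in 3803 and gained a call in 95. None was called in the opposite direction, and the cause was not tested. Of the 44 gained and lost peaks, 18 lay within 20 kb, and leaving out 1 library gave 44 to 63.

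Equal replicate numbers did not pair the groups of 1 fraction: deviations of same-numbered libraries correlated between -0.0177 and 0.0295 in ECs, -0.0299 and 0.0716 in the parenchyma, -0.039 and 0.0322 in bound and -0.21 and 0.0102 in input RNA. Between the fractions of 1 preparation, which share a number and may share a sort or lysate, the correlations were -0.00378 to 0.0906 in sorted cells and 0.049 to 0.143 in RiboTag RNA. With a replicate block the counts were 14 (EC tissues), 4 (EC genotypes), 5 (ligands in the parenchyma), 3 (bound tissues), 2 (bound genotypes), 3 (ligands in input), 6 (bound over input), 11 (ECs over parenchyma) and 0 (ligands between genotypes), and 10 and 6 for the fraction comparisons with a block per preparation. The depth of 2 libraries per group limits what can be called.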
